A study of Mus musculus with 16 samples.

Results

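Macrophages take up heme from damaged red cells, break it down and export what is left. The 9 genes described here encode the main proteins of that route. They were chosen by their known function, with earlier results of these data known. They are the heme oxygenases Hmox1 and Hmox2, the biliverdin reductases Blvra and Blvrb, and the heme transporters and receptors Slc48a1, Flvcr1, Flvcr2, Abcg2 and Lrp1. All 9 were represented on the array, by 12 probes, and all 9 were among the 12759 genes tested, out of 20659 genes that could be named. Flvcr2 entered the test only through the LPS arrays, where alone it was well above background, so it had to differ there and is kept out of the counts of called genes.

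Cells were mouse macrophages derived from stem cells, and gene expression was measured on 16 Agilent 2-colour arrays, 4 per group. The untreated group was taken at 0 h. The other groups were exposed for 8 h to heme-albumin at 50 µM, to heme-albumin at 200 µM or to lipopolysaccharide (LPS), a bacterial cell wall component, at 10 ng/mL. Each array set the sample (red, Cy5) against an untreated reference (green, Cy3), and the control arrays carried untreated RNA in both colours. Because the control was taken at 0 h, treatment and time in culture cannot be told apart in comparisons with it, whereas the heme-albumin and LPS groups were matched in time. The series design describes the 4 replicates, a to d, as independent biological replicates.

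Heme oxygenase opens the heme ring and releases iron, carbon monoxide and biliverdin, which biliverdin reductase turns into bilirubin. Hmox1 is the inducible form of the oxygenase, held down by the heme-binding repressor BACH1 and switched on through NRF2, and Hmox2 is the constitutive form. SLC48A1 (HRG1) moves heme out of the phagolysosome, FLVCR1 and ABCG2 export heme or porphyrins, and LRP1 takes up heme bound to hemopexin.

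Between 49.9% and 59.4% of probes were well above background in red on each array, and 188 to 690 spots per array were left out as outliers. Of the 10 macrophage markers looked for, the 9 on the array were well above background on all arrays of every group. Of 5 embryonic stem cell genes, Pou5f1, Sox2 and Zfp42 were above background on no array and 1, Nanog, on every array. Of the 6 erythroid genes on the array, Klf1 was above background on no array, and 1 to 3 were above it on all arrays of a group. In the LPS group, 4 of 9 macrophage, 2 of 4 neutrophil and 2 of 3 fibroblast markers tested were called higher (14% of all genes). So were 2 of 3 endothelial, 1 of 3 dendritic cell and 1 of 3 erythroid markers. Called lower were 2 of 2 hematopoietic progenitor markers (16.7% of all genes). Any marker that passed the filter only through the LPS arrays had to be higher there. The fibroblast marker Dcn, counted here, was above background on no array of another group. After heme-albumin at 200 µM, 2 of 9 macrophage markers were called lower (0.98% of all genes) and 1 of 3 fibroblast markers higher (2.05%). The part of these in the results was not tested, and in such bulk RNA fewer cells of a type and less RNA per cell cannot be told apart. Every group kept 1 position on its slides, so position and group cannot be told apart. The median green signal, which comes from the same kind of reference RNA on every array, was 1010 to 1330 on LPS arrays and 441 to 537 on control arrays, so levels are given as log2 ratios of sample to reference. Each slide held 1 array of every group, and the arrays were scanned on 2 days (replicates a and b, then c and d). Scan day and biological replicate therefore cannot be told apart where replicates a and b differ from c and d.

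A gene was called when its difference passed an adjusted p of 0.05 (limma, Benjamini-Hochberg over all genes tested) and was at least 2-fold. Against control, 3 of the 8 genes other than Flvcr2 were called after heme-albumin at 200 µM (3.03% of all genes), 2 after 50 µM (0.368%) and 3 after LPS (30.7%). Both heme-albumin doses raised Hmox1 and Slc48a1, and the higher dose also raised Blvrb. LPS raised Hmox1 and lowered Flvcr1 and Abcg2. Thus Hmox1 was the member called in all 3 comparisons with control, which share their control arrays. The median log2 change of the 8 genes was 0.06 after heme-albumin at 200 µM, 0.14 after 50 µM and -0.51 after LPS, against -0.02, -0.01 and -0.09 over all genes tested.

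**Figure D1:**
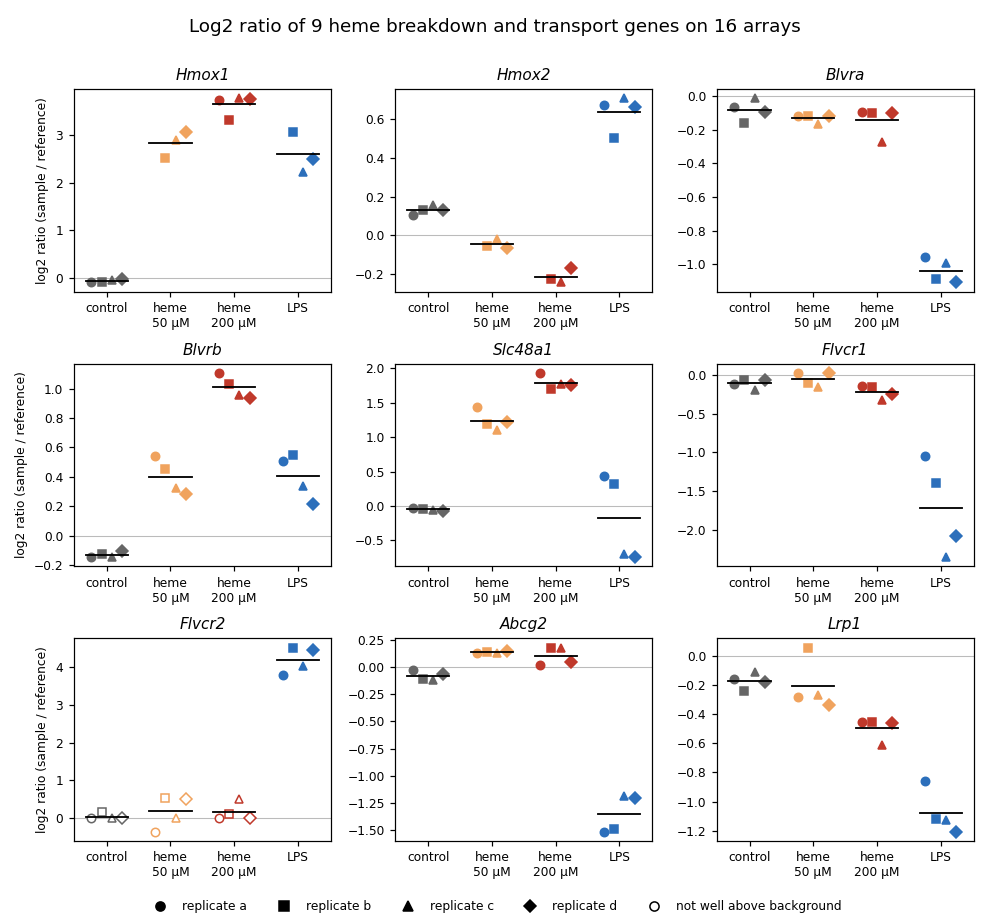
Log2 ratio of sample to untreated reference (y axis) of the brightest probe of each gene on each array, by group (x axis); marker shapes are replicates a to d, the bar is the group mean, and open markers are not well above background. Hmox1 lies above every control in all treated groups, Slc48a1 after LPS splits into 2 arrays above and 2 below the controls, and Flvcr2 is measured above background only on the 4 LPS arrays.

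Hmox1 was the most responsive of the enzymes. Its log2 ratios in controls a to d were -0.09, -0.07, -0.04 and -0.03. After heme-albumin at 200 µM they were 3.73, 3.32, 3.76 and 3.75. After 50 µM replicates b to d gave 2.51, 2.89 and 3.06, and after LPS replicates b to d gave 3.06, 2.22 and 2.48. Every treated array thus lay far above the controls, while the 50 µM and LPS arrays overlapped. The replicate a spots of the 50 µM and LPS groups were marked as outliers by the scanner software and left out of the fit, with log2 ratios of 2.74 and 3.18. The change against control was 3.70 ± 0.17 (SE; n = 4 and 4; adjusted p = 1.4e-08, limma) after 200 µM, a 13.0-fold rise. It was 2.88 ± 0.18 (n = 3 and 4; adjusted p = 4.4e-06) after 50 µM, or 7.36-fold, and 2.65 ± 0.18 (n = 3 and 4; adjusted p = 2.4e-08) after LPS, or 6.26-fold. Among the other genes tested, 6 had a larger upward change after 200 µM and 501 after LPS. With the red channel alone, in place of the ratio to the reference, the LPS change was 1.55 and the 200 µM change 2.67, both still called. On the first scan day alone the LPS change was 3.15 and on the second 2.39.

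A second, dimmer Hmox1 probe measured all 16 arrays. It gave 2.81, 2.80, 3.03 and 3.22 after heme-albumin at 200 µM and 2.26, 2.15, 2.44 and 2.65 after 50 µM. After LPS it gave 2.50, 2.26, 1.95 and 2.20, against -0.18 to -0.07 in controls. The order of the groups was thus the same as with the brighter probe, at smaller values. Its changes against control were 3.098 ± 0.13 after 200 µM, 2.51 ± 0.13 after 50 µM and 2.36 ± 0.13 after LPS, with adjusted p of 9.5e-10, 1.1e-07 and 2.7e-10 over all probes.

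Hmox2, the constitutive oxygenase, stayed within 2-fold of the controls. Its log2 ratios were 0.11, 0.13, 0.15 and 0.13 in controls and 0.68, 0.50, 0.71 and 0.66 after LPS. After 50 µM replicates b to d gave -0.06, -0.02 and -0.07, and after 200 µM -0.23, -0.25 and -0.17. All LPS arrays lay above the controls and all heme-albumin arrays below them. The replicate a spots of both heme-albumin groups were left out as outliers, at -0.48 and -0.24. The differences from control were 0.51 ± 0.05 after LPS (adjusted p = 5.8e-07) and -0.35 ± 0.05 after 200 µM (adjusted p = 0.00041), both under 2-fold. With the red channel alone these were 0.23 (adjusted p = 0.11) and -0.33 (adjusted p = 0.13), and neither passed. After 50 µM the difference was -0.18 ± 0.05, with an adjusted p of 0.10. The dimmer probe of Hmox2, which measured every array, gave 0.52, -0.38 and -0.20.

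**Figure D2:**
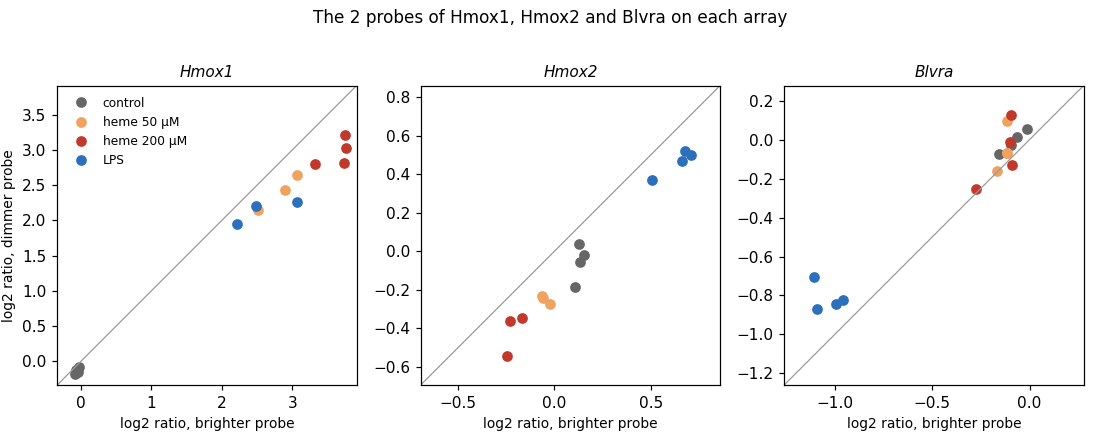
Log2 ratio of the brighter probe (x axis) against the dimmer probe (y axis) of Hmox1, Hmox2 and Blvra on each array where both were used, coloured by group; the line marks equality. The treated arrays of Hmox1 lie below the line, since the dimmer probe gave smaller changes (3.098 against 3.70 after 200 µM), and LPS stands apart on both probes of Blvra and Hmox2.

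The biliverdin reductases split by treatment. Blvrb, which also reduces flavins, had log2 ratios of -0.14, -0.13, -0.14 and -0.11 in controls. It stood at 0.54, 0.45, 0.33 and 0.28 after 50 µM and at 1.11, 1.03, 0.96 and 0.93 after 200 µM. LPS gave 0.51, 0.55, 0.34 and 0.22. All treated arrays lay above the controls, the 200 µM arrays above all others, and the 50 µM and LPS arrays overlapped. Blvrb rose by 1.14 ± 0.08 (adjusted p = 6.9e-08; 2.20-fold) after 200 µM. After 50 µM and after LPS the difference was 0.53 ± 0.08 in each case, past the adjusted p (0.0008 and 1.2e-05) but not the 2-fold limit. With the red channel alone the 50 µM difference of 0.51 had an adjusted p of 0.084.

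Blvra, the main biliverdin reductase, stayed near the controls after heme-albumin. Controls gave -0.07, -0.16, -0.01 and -0.09, and the heme-albumin arrays ran from -0.27 to -0.09. LPS gave -0.96, -1.09, -0.995 and -1.11, all below every other array. The LPS difference was -0.96 ± 0.05 (adjusted p = 3.1e-10), just short of 2-fold at 1.94, and the dimmer probe gave -0.80 ± 0.08. After 200 µM the difference was -0.06, with a 95% interval of -0.17 to 0.05.

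Slc48a1, the exporter of heme from the phagolysosome, responded to heme-albumin at both doses. Controls gave -0.02, -0.04, -0.06 and -0.08. Arrays at 50 µM gave 1.43, 1.19, 1.10 and 1.21, and arrays at 200 µM gave 1.93, 1.70, 1.77 and 1.76. Neither dose overlapped the controls or the other dose. Slc48a1 rose by 1.28 ± 0.22 (adjusted p = 0.0032; 2.44-fold) after 50 µM and by 1.84 ± 0.22 (adjusted p = 2.2e-05; 3.58-fold) after 200 µM. After LPS the 4 arrays gave 0.44, 0.32, -0.70 and -0.74. The first 2 of these, scanned on the first day, lay above the controls and the other two below them. The fitted LPS difference of -0.12 ± 0.22 (adjusted p = 0.62) was therefore a mean over 0.41 (adjusted p = 0.014) for replicates a and b and -0.65 (adjusted p = 6e-05) for c and d, each with 2 arrays a group. The heme-albumin changes showed no such split, at 1.35 and 1.22 after 50 µM on the 2 days.

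**Figure D3:**
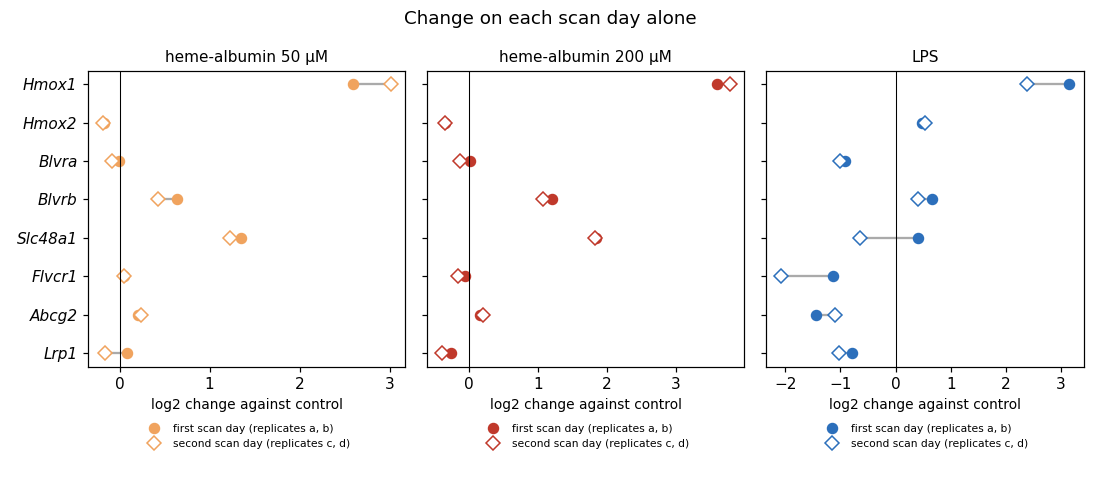
Log2 change against control (x axis) of 8 genes within scan day 1 (filled circles, replicates a and b) and within scan day 2 (open diamonds, replicates c and d), by treatment; Flvcr2, below background in controls, is left out. After LPS, Slc48a1 lies on opposite sides of 0 on the 2 days (0.41 and -0.65) and Flvcr1 moves from -1.13 to -2.08, while the heme-albumin values of both lie close together.

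Flvcr1 and Abcg2, exporters of heme and porphyrins at the cell surface, were lowered by LPS. Flvcr1 had log2 ratios of -0.11, -0.07, -0.19 and -0.06 in controls and -1.04, -1.40, -2.34 and -2.07 after LPS. Heme-albumin arrays ran from -0.33 to 0.02 and overlapped the controls. Flvcr1 fell by 1.60 ± 0.20 on the log2 scale (adjusted p = 3.8e-06; 3.04-fold; 4 of 4 arrays lower) after LPS. Between replicates a and b of LPS and control the fall was 1.13, and between replicates c and d, scanned on the other day, it was 2.08. After 200 µM the difference was -0.11 (95% interval -0.55 to 0.32) and after 50 µM 0.05 (-0.38 to 0.49). These intervals rest on a spread shared by all 4 groups, which was widest after LPS. The standard deviation was 0.60 after LPS, 0.06 in controls, 0.09 at 50 µM and 0.08 at 200 µM.

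Abcg2 had log2 ratios of -0.03, -0.11, -0.12 and -0.07 in controls and -1.51, -1.49, -1.18 and -1.21 after LPS. It fell by 1.27 ± 0.07 on the log2 scale (adjusted p = 5e-10; 2.41-fold). After heme-albumin the arrays gave 0.13 to 0.15 at 50 µM and 0.02 to 0.18 at 200 µM. These lay above every control, but the differences of 0.22 ± 0.07 (adjusted p = 0.15) and 0.19 ± 0.07 (adjusted p = 0.082) did not pass the test. Whether they passed the adjusted p depended on the setting. Over the alternatives it ran from 0.0016 to 0.43 after 50 µM and from 0.0028 to 0.30 after 200 µM.

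Flvcr2, a relative of Flvcr1 known as a choline carrier with a proposed role in heme import, was well above background on 4 of 4 LPS arrays and 0 of the 12 others. Its log2 ratios on the LPS arrays were 3.80, 4.52, 4.03 and 4.46. Since controls gave only a bound, Flvcr2 was at least 5.67-fold higher after LPS than in controls, a description for which no p is given. The bound sets the mean LPS signal against the lowest signal that was well above background on each control array. With normexp background correction the LPS difference was 1.12 on the log2 scale. No fold is given for heme-albumin, where both groups were below background.

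Lrp1, the receptor for heme bound to hemopexin, was called in no comparison. Controls gave -0.16, -0.24, -0.11 and -0.18, and LPS -0.86, -1.12, -1.13 and -1.20. Arrays at 200 µM gave -0.46, -0.45, -0.61 and -0.46, below all controls, while 50 µM gave -0.28, 0.06, -0.27 and -0.33. The difference was -0.91 ± 0.09 (adjusted p = 1.9e-07; 1.88-fold) after LPS, -0.03 ± 0.09 (adjusted p = 0.94) after 50 µM, and -0.32 ± 0.09 (adjusted p = 0.015) after 200 µM. Without replicate c of the 200 µM group that difference was -0.28 (adjusted p = 0.053), and with the red channel alone -0.34 (adjusted p = 0.057). The LPS difference passed 2-fold with the red channel alone (-1.04) and on the second scan day alone (-1.02).

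**Figure D4:**
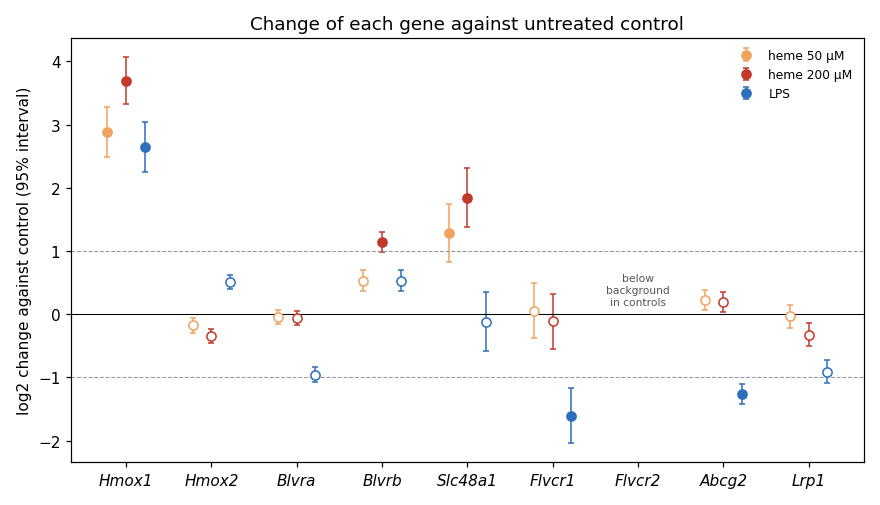
Log2 change against control (y axis, with 95% interval from the limma fit) of 8 genes after heme-albumin at 50 and 200 µM and after LPS; filled points were called, dashed lines mark 2-fold, and Flvcr2 has no value because controls were below background. Values at both heme-albumin doses stand above the upper line for Hmox1 and Slc48a1. So do the 200 µM value of Blvrb and the LPS value of Hmox1. LPS values lie below the lower line for Flvcr1 and Abcg2.

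Between the 2 doses 0 of the 8 genes other than Flvcr2 were called with limma (0.831% of all genes). Of the 8, 5 had an unadjusted p under 0.05, and 2 passed the adjusted p without reaching 2-fold. These were Blvrb, higher by 0.61 ± 0.08 (adjusted p = 0.00014) at 200 µM, and Hmox1, higher by 0.82 ± 0.18 (adjusted p = 0.017). The Hmox1 difference had an adjusted p of 0.098 with the replicate block and was 0.16 (adjusted p = 0.89) with the red channel alone. It also missed the adjusted p without replicate c of the 200 µM group (0.051) or replicate b of the 50 µM group (0.083). Slc48a1 was higher by 0.56 ± 0.22 (adjusted p = 0.15; 95% interval 0.09 to 1.02), with every 200 µM array above every 50 µM array. Its SE and p rest on a spread shared by all 4 groups. That spread was widest after LPS (standard deviation 0.64, against 0.14 at 50 µM and 0.10 at 200 µM). Over the alternatives the adjusted p of this Slc48a1 difference ran from 0.0035 to 0.39.

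Heme-albumin and LPS were also compared with each other at the same time point. Against LPS, 4 of the 8 genes other than Flvcr2 were called at 200 µM (30.3% of all genes) and 3 at 50 µM (30.6%). Slc48a1, Flvcr1 and Abcg2 were higher at 200 µM by 1.96 ± 0.22, 1.49 ± 0.20 and 1.46 ± 0.07, with adjusted p of 8.9e-07, 8.1e-06 and 1.1e-10. At 50 µM they were higher by 1.40, 1.66 and 1.49. Slc48a1 at 50 µM was 0.94 on the first scan day alone and then missed 2-fold. Flvcr2 was at least 5.25-fold higher after LPS than at 200 µM and at least 6.26-fold higher than at 50 µM. Hmox1 was higher at 200 µM than after LPS by 1.05 ± 0.18 (adjusted p = 0.00017), close to the 2-fold limit. It missed that limit on the dimmer probe (0.74), with the outlier spots kept (0.90) and on the first scan day alone (0.46, adjusted p = 0.082), against 1.40 on the second. Without LPS replicate c it was 0.86 and without LPS replicate d 0.997, both not called. At 50 µM Hmox1 differed from LPS by 0.23 ± 0.20 (adjusted p = 0.29; 95% interval -0.20 to 0.66). With the red channel alone that difference was 0.96 (adjusted p = 0.00029), without LPS replicate b it was 0.47 (adjusted p = 0.02), and on the 2 scan days it was -0.55 and 0.63. Blvra was higher by 0.90 ± 0.05 at 200 µM than after LPS (adjusted p = 6.9e-10) and Hmox2 lower by 0.85 ± 0.05 (adjusted p = 7.2e-09), each under 2-fold. The Hmox2 difference was called with normexp correction (-1.01) and without background subtraction (-1.0004).

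Genes with the array pattern most like each called member other than Flvcr2 were found by Pearson's r over the log2 ratios of all groups, as a description in which arrays of a group share their treatment. For Slc48a1 they were Gclc (0.979), Etfrf1 (0.978) and Gclm (0.972) over 16 arrays. For Blvrb they were Treml4 (0.989), Slc39a4 (0.989) and Abcc1 (0.974). For Hmox1, over 14 arrays, they were Dnmt3l (0.964), Rit1 (0.959) and Abcc1 (0.956). For Flvcr1 they were Npc1 (0.994), Adi1 (0.993) and Mepce (0.992). For Abcg2 they included Tspan2 (0.994) and Sun2 (0.993).

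Other genes of the route were described by lists. Over all genes tested, 2.05% were called higher and 0.98% lower after 200 µM. These shares were 0.29% and 0.0784% after 50 µM, and 14% and 16.7% after LPS. The list counts below were not tested against them. Among genes for uptake of hemoglobin and heme, 7 of 9 were tested, and 2 were called higher and 0 lower after 200 µM. After LPS 2 were called higher and 2 lower. Hp, which encodes the hemoglobin-binding plasma protein haptoglobin, rose by 2.87 ± 0.13 after 200 µM, 1.07 ± 0.13 after 50 µM and 4.39 ± 0.13 after LPS. The scavenger receptor gene Marco rose by 1.46 ± 0.29 after 200 µM and by 3.86 ± 0.29 after LPS. Slc46a1, a carrier of folate and heme, fell by 1.57 ± 0.07 after LPS. Stab2, counted as lower after LPS, was well above background on 2 of 4 control arrays and 0 of 4 LPS arrays. No fold is given for it, since part of its control values were themselves not well above background.

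Of 7 tested partners of the oxygenase and genes for bilirubin transport, 2 were called higher and 1 lower after 200 µM, and 0 higher and 3 lower after LPS. Cyb5a, encoding cytochrome b5, rose by 2.20 ± 0.24 after 200 µM and 1.36 ± 0.22 after 50 µM. The export pump gene Abcc1 rose by 1.75 ± 0.09 after 200 µM, and its LPS difference of 0.91 ± 0.09 was under 2-fold. The uptake carrier gene Slco2b1 fell by 2.83 ± 0.14 after 200 µM, by 1.06 ± 0.14 after 50 µM, and fell by 5.35 ± 0.14 after LPS. Slco2b1 was well above background on only 3 of 4 LPS arrays, so the size of its LPS fall is less certain. The pump gene Abcc3 fell by 2.11 ± 0.08 after LPS, and Abcc2, below background on all LPS arrays, was at least 3.20-fold lower.

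Of 14 other heme transporters and heme-binding proteins, 2 were called higher and 0 lower after 200 µM, and 3 higher and 3 lower after LPS. Abcc5, which encodes an exporter linked to heme, rose by 1.77 ± 0.07, 1.02 ± 0.07 and 1.74 ± 0.07 after 200 µM, 50 µM and LPS. Mfsd7a (Slc49a3), a relative of the FLVCR genes, rose by 1.02 ± 0.11 after 200 µM and 3.45 ± 0.11 after LPS. The heme-binding protein genes Hebp1 and Hebp2 fell by 1.41 ± 0.06 and 1.25 ± 0.12 after LPS.

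The iron released from heme is stored or exported, and 2 of 10 such genes were called higher after 200 µM, none lower, with 1 higher and 1 lower after LPS. Slc40a1, the iron exporter ferroportin, rose by 4.19 ± 0.30 after 200 µM and 2.96 ± 0.28 after 50 µM, and fell by 2.36 ± 0.28 after LPS. Slc11a2, an iron importer, rose by 1.04 ± 0.07 after 200 µM and 3.04 ± 0.07 after LPS.

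Among 14 heme-sensing and transcription regulators, 1 was called higher and 1 lower after 200 µM, and 6 higher and 2 lower after LPS. Bach1, the heme-binding repressor of Hmox1, fell by 1.08 ± 0.14 after LPS, with a difference of 0.24 ± 0.14 (adjusted p = 0.25) after 200 µM. Bach2 fell by 1.23 ± 0.22 after 200 µM and was at least 4.99-fold lower after LPS. At 200 µM Bach2 was well above background on only 3 of 4 arrays. Nfe2l1, Keap1 and Maff rose by 1.52 ± 0.08, 1.24 ± 0.10 and 2.57 ± 0.27 after LPS. Spic, a regulator of iron-recycling macrophages that was chosen for mention after its values were seen, rose by 5.78 ± 0.21 after 200 µM, 3.26 ± 0.21 after 50 µM and 5.66 ± 0.21 after LPS.

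All 9 NRF2 targets of other functions were called higher after 200 µM, with a median of 1.87. After 50 µM 4 were, and after LPS 3. Slc7a11, counted among the 9, was well above background on 1 of 4 control arrays, so its changes rest on control values near background. The glutathione synthesis genes Gclm and Gclc rose by 2.38 ± 0.18 and 1.85 ± 0.24 after 200 µM. The corresponding LPS differences were 0.34 ± 0.18 and -0.60 ± 0.24. Nqo1, Srxn1 and Txnrd1, genes of quinone and thiol reduction, rose by 1.44 ± 0.21, 1.87 ± 0.19 and 1.98 ± 0.11 after 200 µM. Of these 3, Txnrd1 alone also rose after LPS, by 1.51 ± 0.11.

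**Figure D5:**
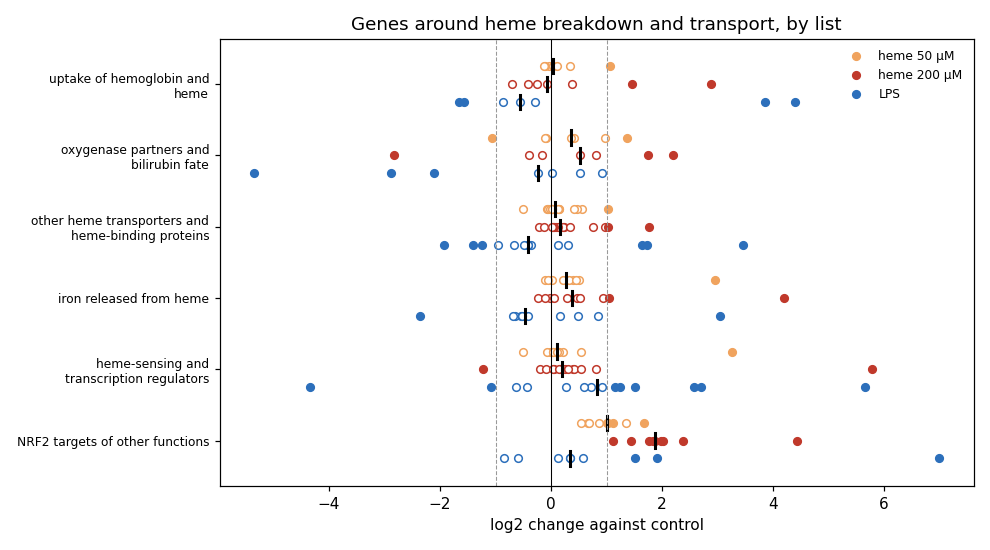
Log2 change against control (x axis) of each tested gene of 6 lists (y axis) after heme-albumin at 50 µM, 200 µM and LPS; filled points were called, black bars are list medians, dashed lines mark 2-fold, and the LPS values of Stab2, Abcc2 and Bach2 are fitted values of probes below background. All 9 NRF2 targets lie above 2-fold after 200 µM, while LPS points of most lists spread to both sides of 0. Slc7a11, an NRF2 target, was well above background on 1 of 4 control arrays.

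Promoter sequences of 7 of the 9 genes (not Hmox1 and Slc48a1), 12 promoters in all, were taken from RefSeq (GRCm38.p6) and the 250 bases before the start were searched on both strands for 4 motifs. The antioxidant response element core TGACNNNGC, which NRF2 binds, occurred in 3 of the 12, against 10.2% of 32851 promoters. The NF-kB form, GGGA or GGGG and then TCC after 3 bases, occurred in 2 of the 12, both of Abcg2, against 7.91%. The MAF recognition letters TGCTGAC occurred in 0 of the 12 (3.81% of all promoters). The interferon-stimulated element, TTTC and again TTTC after 2 bases, also occurred in 0 (2.98%). A match is a description of letters and not a binding site. The windows of Flvcr1, Blvra and Lrp1 show the matches in genes not called after heme-albumin. Those of Gclm and Txnrd1 show the same core in 2 genes called higher after 200 µM. These 2 were picked as examples from the 9 listed NRF2 targets. Matches in the other targets are not given, so the windows do not show whether the core goes with the response. Capitals mark the match, on the strand opposite to the gene in all but Flvcr1.
Flvcr1, chr1:191026307-191026367, minus strand: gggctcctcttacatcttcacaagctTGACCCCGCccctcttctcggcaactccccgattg
Blvra, chr2:127070582-127070642, plus strand: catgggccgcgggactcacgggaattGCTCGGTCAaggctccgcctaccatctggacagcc
Lrp1, chr10:127621274-127621334, minus strand: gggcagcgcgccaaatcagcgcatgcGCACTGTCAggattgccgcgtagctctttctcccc
Gclm, chr3:122245397-122245457, plus strand: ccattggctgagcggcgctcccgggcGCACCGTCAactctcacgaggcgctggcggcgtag
Txnrd1, chr10:82859088-82859148, plus strand: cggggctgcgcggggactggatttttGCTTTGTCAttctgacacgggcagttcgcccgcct

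The 2 Abcg2 windows show the NF-kB form, in capitals and on the opposite strand, upstream of separate starts of a gene that fell after LPS.
Abcg2, chr6:58596485-58596546, plus strand: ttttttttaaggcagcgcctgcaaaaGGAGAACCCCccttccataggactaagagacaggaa
Abcg2, chr6:58640405-58640466, plus strand: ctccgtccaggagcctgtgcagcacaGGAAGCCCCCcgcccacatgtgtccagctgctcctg

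Blvrb, the one called reductase, had no match to any of the 4 motifs upstream of either of its 2 starts, and the bases before the first are shown with no capitals for that reason.
Blvrb, chr7:27447728-27447977, plus strand: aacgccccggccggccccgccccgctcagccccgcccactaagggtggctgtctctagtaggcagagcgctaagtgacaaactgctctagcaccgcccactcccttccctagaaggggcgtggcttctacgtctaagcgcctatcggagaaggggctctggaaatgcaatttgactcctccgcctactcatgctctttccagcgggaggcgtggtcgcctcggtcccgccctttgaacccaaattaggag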

How the data were processed

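The authors' deposited scanner files give, per spot, a red and a green intensity and a log10 ratio of red over green. Per the file headers and the submitters' processing notes these were made with Agilent Feature Extraction 10.7.3.1, and per the labels its linear-lowess normalisation was not followed by another. The log10 ratio was turned into a log2 ratio. Control spots and spots marked as outliers were left out, and spots of a probe were averaged. A probe was kept if its red signal was well above background on all 4 arrays of at least 1 group (21458 probes, counting outlier spots as measured). The brightest kept probe stood for its gene.

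Group means over all 16 arrays were fitted with limma 3.58.1 (R 4.3.3), with eBayes and Benjamini-Hochberg adjustment over 12759 genes, and checked on simulated data. The probe fit covered all kept probes. Named genes were all members, the 3 genes most correlated with each called member, and up to 5 called genes per list in list order; some genes that this rule names are not reported here. The members, lists and motifs were chosen with earlier results of these data known. Alternatives covered background correction, centring, the red channel, filters, blocks, scan days, probe rule, array weights and left-out arrays. Each replicate letter goes with its own slide and with its own tag in the sample titles, shared by all groups. Same-lettered arrays deviated together, with correlations of 0.103 to 0.502 in 5 comparisons and 0.0981 to 0.115 for LPS against control. The number of arrays limits the precision.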

Additional observations from a re-analysis of the deposited data

Results flagged for a closer look

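In 4 of 41 groups of 4 arrays, 1 array's log2 ratio lay far from the others by Dixon's criterion, which chance meets in about 1 group in 20. Hmox1 (brighter probe) after heme-albumin at 200 µM was lower in replicate b, at 3.32. Blvra (brighter probe) was lower in replicate c after 50 µM, at -0.17, and after 200 µM, at -0.27. Lrp1 was lower in replicate c after 200 µM, at -0.61.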

How the results depend on the processing

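The counts of members called, here with Flvcr2 included, stayed within 1.5 times their main value in every alternative that gave one. They were 3 to 5 after LPS, 3 after 200 µM and 2 after 50 µM. Flvcr2 had to differ after LPS, so its part in the LPS counts says nothing about their stability. Without Flvcr2 the main counts were 3 of 8 after LPS (30.7% of all genes), 3 after 200 µM (3.03%) and 2 after 50 µM (0.368%). With the replicate block 4 members, Flvcr2 among them, were called after LPS, 3 after 200 µM and 2 after 50 µM. No call of a member changed with it, though Hmox1 between doses lost its adjusted p (0.098). Flvcr2 has no value with the filter on all arrays. Hmox1 between 200 µM and LPS missed 2-fold in 9 of 27 alternatives (0.46 to 1.40 over all). Differences that were not called changed sign as follows. Slc48a1 after LPS was 0.0684 with normexp correction, 0.0700 without background subtraction, 0.41 within scan day 1 and 0.0074 with array weights. Within scan day 1 Blvra after 200 µM was 0.0158, Lrp1 after 50 µM 0.0879, Blvra between doses 0.0189 and Hmox1 between 50 µM and LPS -0.55. Blvra between doses was 0.0040 with array weights. Blvrb between 50 µM and LPS was 0.13 with the red channel alone and 0.0285 within scan day 2. With arrays left out, Slc48a1 after LPS ranged from -0.324 to 0.0697, Blvra after 200 µM from -0.0959 to 0.0093, Lrp1 after 50 µM from -0.146 to 0.0083, Blvra between doses from -0.0293 to 0.0315 and Blvrb between 50 µM and LPS from -0.0639 to 0.0480. The causes were not tested. Keeping outlier spots was chosen after seeing the data. The array-weight fit did not reach its convergence tolerance. Flvcr2 outside LPS lies below background, where signal limits any value.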
